A study of Mus musculus with 6 samples.

Results

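Mitochondrial ribosomal protein genes were examined in primary cortical cell cultures of mouse fetuses treated with 10HDA (10-hydroxy-2-decenoic acid), which is a fatty acid of royal jelly. The genes are the rows of the count table whose Ensembl identifier belongs to a protein-coding mouse gene with a symbol that starts with Mrpl or Mrps and a digit. There were 77 of them among 43346 rows, 48 named Mrpl for the large subunit and 29 named Mrps for the small subunit. Mrpl33 was not analysed here, and 5 rows of processed pseudogenes with such symbols were left out. The libraries came from cultures 1, 3 and 4, and each culture gave 1 library treated with vehicle (DMSO) and 1 library treated with 1 mM 10HDA. All 6 libraries are labelled as strain Cyp19-EGFP, gestational day 15.5 and genotype SRY+, whereas the methods of the study name C57BL/6 embryos for these cultures. The methods state no number of embryos per culture.

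Each library held between 9144736 and 13367194 counts, and the 77 genes took from 0.167% to 0.205% of them. A tested member had between 89 and 797 counts in a library. The cultures were rich in neuronal transcripts, since 12 neuron markers summed to between 8056 and 10130 CPM (counts scaled to a common library size) per library. The 12 astrocyte markers summed to between 1039 and 1652 CPM, and the microglia markers to between 0.811 and 1.23 CPM. Although all libraries are labelled SRY+, Ddx3y, Eif2s3y, Kdm5d and Uty, which are Y-linked, summed to 9.07 and 9.30 CPM in the 2 libraries of culture 1 and to between 97.8 and 136 CPM in the other libraries. Calls and medians are therefore also given without culture 1, where 68 of the members were tested.

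Mitochondria translate the mRNAs of their own DNA, all of which code for subunits of the respiratory chain and ATP synthase, on a ribosome of their own. The ribosomal RNAs of this particle, mt-Rnr1 of the small subunit and mt-Rnr2 of the large subunit, are encoded by mitochondrial DNA. Its proteins are encoded in the nucleus, made in the cytosol and imported, so that assembly joins the products of both genomes. Neurons depend strongly on respiration, and inherited defects of mitochondrial translation often affect the brain.

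Members lie on 17 chromosomes, with 11 of them on chromosome 11. RefSeq promoter windows, each 250 bases before to 50 bases after a transcription start, were found for 68 members (74 windows, GRCm38.p6). The ETS-type motif CCGGAAG, searched on both strands, was present in 33.8% of the members' windows and in 8.9% of all 32851 windows, and in 11.6% of the 21263 windows of protein-coding genes. AAGATGGCG, a YY1-type motif, was in 10.8% of the members' windows, 1.4% of all windows and 1.8% of those of protein-coding genes, and GCGCATGC, an NRF1-type motif, in 9.5%, 2.7% and 3.5%. The GC box GGGCGG was in 52.7% of the members' windows against 46.2% of those of protein-coding genes (35.7% of all), CCAAT in 39.2% against 38.2% (37.4%), the antioxidant-type motif TGACNNNGC in 18.9% against 13% (12.4%), and TATAAA in 6.8% against 12.6% (13.6%). TGATGCAA, an ATF4-type motif, was in none of the members' windows and in 0.9% of both sets. CCGGAAG and AAGATGGCG can overlap, since the former ends as the latter begins, and a match describes letters only. Among tested members, the median log2 fold change with 10HDA was 0.029 for the 22 that held the ETS-type motif and 0.089 for the 42 that did not. The 150 bases before the start are shown for Mrps14 and Mrps24, which differed most clearly within cultures, and for Mrpl12 and Mrpl42, at the lower end of the fold changes. For Mrpl27, the third member with a clear difference, 30 bases around its motif are shown, since its promoter lies over exons of Eme1 on the other strand. Capitals mark matches to any of the 8 motifs, and sequences read 5′ to 3′ on the strand of the gene.
Mrps14, chr1:160195065-160195214, plus strand: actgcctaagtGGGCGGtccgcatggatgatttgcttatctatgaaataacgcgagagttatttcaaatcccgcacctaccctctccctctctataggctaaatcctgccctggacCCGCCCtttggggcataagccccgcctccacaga
Mrps24, chr11:5707702-5707851, minus strand: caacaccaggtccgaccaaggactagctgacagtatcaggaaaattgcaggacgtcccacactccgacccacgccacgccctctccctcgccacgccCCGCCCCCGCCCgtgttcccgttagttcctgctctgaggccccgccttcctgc
Mrpl27, chr11:94653725-94653754, plus strand: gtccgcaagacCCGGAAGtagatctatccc
Mrpl12, chr11:120484487-120484636, plus strand: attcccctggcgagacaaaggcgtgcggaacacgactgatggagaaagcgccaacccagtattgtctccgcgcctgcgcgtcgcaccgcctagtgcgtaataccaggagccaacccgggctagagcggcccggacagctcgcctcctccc
Mrpl42, chr10:95501950-95502099, minus strand: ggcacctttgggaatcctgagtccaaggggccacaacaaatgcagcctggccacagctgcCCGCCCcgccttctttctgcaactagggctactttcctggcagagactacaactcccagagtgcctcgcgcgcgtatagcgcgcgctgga
In these stretches Mrps14, Mrps24 and Mrpl42 held the GC box, Mrpl27 held the ETS-type motif 55 bases before the start, and Mrpl12 held none of the 8 motifs. GENCODE places the stretch of Mrps24 in an intron of a longer Mrps24 transcript, and 24 bases of that of Mrpl12 in its first exon. The other stretches lie upstream of their genes, and none of the motifs was held by all of Mrps14, Mrps24 and Mrpl27.

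The first question was whether 1 mM 10HDA changed the mRNA levels of these genes. Levels differed little between the treatments. Of the 77 genes, 71 passed the filter of at least 10 CPM in at least 3 libraries. Of these 71 genes, 45 were higher (63.4%, against 47.9% of all genes tested) and 26 lower with 10HDA. When counts were scaled by library size alone, 57 of them were higher, and the median of all genes tested was then 0.067 on the log2 scale. The median log2 fold change of the 71 genes was 0.041, with quartiles of -0.034 and 0.16, beside a median of -0.0095 and quartiles of -0.12 and 0.11 over the 10520 genes tested. For 60 of the 71 genes the log2 fold change lay between -0.2 and 0.2. Its size was over 0.25 for 9 members (12.7%), against 17.1% of all genes tested. No member passed an adjusted p of 0.1 in the edgeR quasi-likelihood test without a term for culture, in which 66 genes (0.627%) of the whole table did. Without adjustment, 4 members (5.63%) had a p under 0.05, against 10.1% of all genes tested. DESeq2 called 1 member, Mrps14 (adjusted p = 0.065), and 1.62% of all genes tested, and limma-voom called 0 members and 0.627% of all genes.

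**Figure D1:**
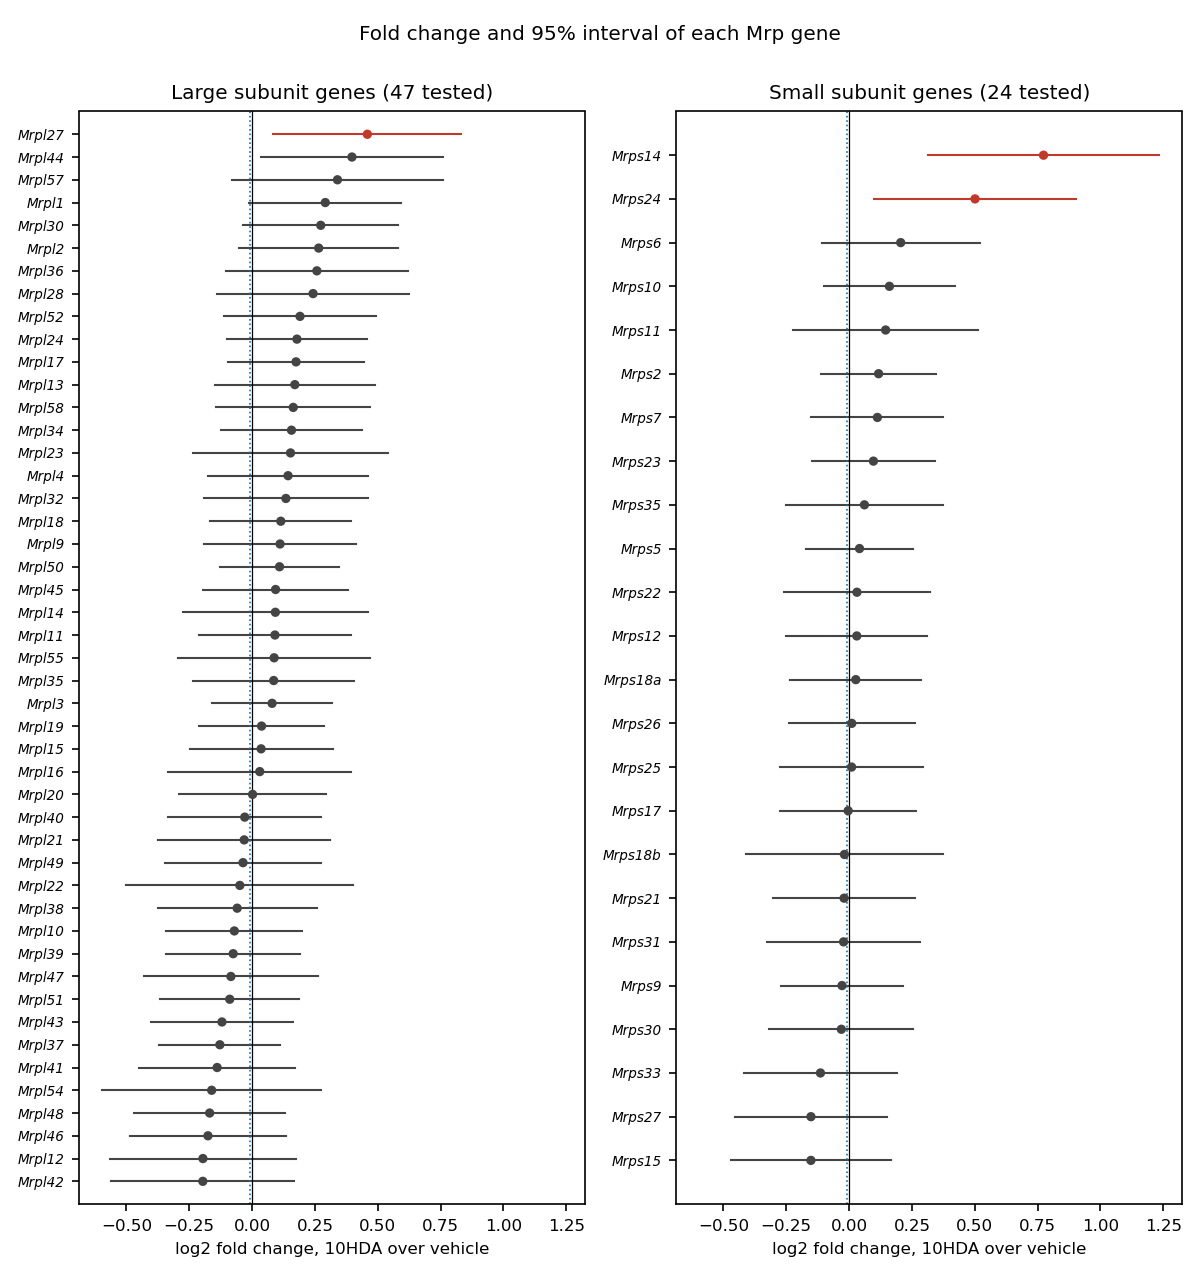
Log2 fold change of each tested Mrp gene, 10HDA over vehicle, on the horizontal axis, with the 95% interval of the edgeR fit without a culture term as a line. Large-subunit genes are on the left and small-subunit genes on the right, sorted by fold change, and the dotted line is the median of all 10520 genes tested (-0.0095). Red marks the 3 genes called with culture as a block. The intervals of Mrps14, Mrps24, Mrpl27 and Mrpl44 lie above 0, and those of the other genes span 0.

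Since each culture gave both a vehicle and a 10HDA library, the libraries were also compared with culture as a block. In that fit Mrps14, Mrps24 and Mrpl27 were higher with 10HDA at an adjusted p under 0.1, and no member was lower. The 3 called members are 4.23% of those tested, while 945 genes (8.98%) were called in the whole table and 411 genes (3.91%) were called higher. An unadjusted p under 0.05 was found for 8 members (11.3%), against 20.0% of all genes tested, and all 8 were higher with 10HDA. The share of members called was thus below the share of all genes called, and close to it when only increases are counted. Without culture 1, the block gave calls of Mrps14, Mrps24, Mrpl27 and Mrpl2, all higher (5.88% of the 68 members tested). In that fit 8.49% of all genes were called, and 360 of 10234 genes were called higher. With library-size scaling the block called 7 of the 71 members, all higher. It then called 12.0% of all genes, and 949 of 10520 genes were called higher.

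Mrps14 encodes a conserved protein of the head of the small subunit (chr1:160195215-160202170, plus strand, GRCm38). Its level was 10.5, 11.2 and 7.90 CPM in the vehicle libraries of cultures 1, 3 and 4 and 17.0, 21.2 and 12.1 CPM in the 10HDA libraries, from 93 to 287 counts per library. All 10HDA libraries lay above all vehicle libraries, and culture 4 was the lowest in both groups. The log2 fold change was 0.77 (SE 0.21, n = 3, edgeR adjusted p = 0.23), and with culture as a block it was 0.76 (adjusted p = 0.0013). It was the largest increase among the 71 tested members. With culture as a block it was called with each culture left out in turn, with values of 0.66 to 0.82 on the log2 scale and an adjusted p of 0.00072 to 0.0060. In the fit with no block, dropping the 10HDA library of culture 4 brought the adjusted p to 0.036, and 355 of 10422 genes were then called. With any other single library dropped, Mrps14 was not called (edgeR adjusted p of 0.20 to 0.80).

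Mrps24, also in the head of the small subunit near the entry of the mRNA, followed with 19.9, 20.2 and 14.8 CPM in vehicle and 29.6, 28.3 and 19.4 CPM with 10HDA. The 10HDA library of culture 4 lay below the vehicle libraries of cultures 1 and 3, so the groups overlapped, but each culture was higher with 10HDA, by 0.57, 0.48 and 0.39 on the log2 scale. The log2 fold change was 0.50 (SE 0.18, n = 3, edgeR adjusted p = 0.40) and 0.49 with the block (adjusted p = 0.013). It was called with the block whichever culture was left out (adjusted p of 0.014 to 0.052). In the fit with no block it was called once the 10HDA library of culture 4 was dropped (adjusted p = 0.071), when 355 of 10422 genes were called. With any other single library dropped, Mrps24 was not called (edgeR adjusted p of 0.26 or more). Mrps24 shares 15.4% of its exon bases with Urgcp on the same strand, whose log2 fold change was 0.24 (edgeR adjusted p = 0.53), and how reads in the shared bases were assigned was not tested.

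Mrpl27, a large-subunit protein next to the peptidyl transferase centre, was at 12.2, 13.6 and 10.1 CPM in vehicle and at 16.0, 19.5 and 13.7 CPM with 10HDA. The groups did not overlap, but the highest vehicle library (culture 3) and the lowest 10HDA library (culture 4) were almost level. The log2 fold change was 0.46 (SE 0.17, n = 3, edgeR adjusted p = 0.41) and 0.45 with the block (adjusted p = 0.047). With the block it was called without culture 1 (adjusted p = 0.064) but not without culture 3 (0.12) or culture 4 (0.20). Of its exon bases, 7.6% lie opposite Eme1, which was at 2.68 CPM and was not tested.

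Mrpl44, a large-subunit protein related to RNase III, was at 12.0, 11.3 and 11.1 CPM in vehicle and 15.7, 17.6 and 11.7 CPM with 10HDA. Cultures 1 and 3 were higher by 0.38 and 0.63 on the log2 scale and culture 4 by 0.067. Its log2 fold change was 0.40 (SE 0.16, n = 3, edgeR adjusted p = 0.45, and 0.13 with the block). Mrpl57, a protein found only in the mitochondrial particle, had 0.34 (SE 0.19, adjusted p = 0.56), and its level in culture 4 went the other way (16.4 CPM in vehicle and 14.9 CPM with 10HDA). Without the 10HDA library of culture 4 and without the block, Mrpl44 and Mrpl57 were called as well (adjusted p = 0.0999 and 0.086), among 355 of 10422 genes. With any other single library dropped, neither was called (edgeR adjusted p of at least 0.31 and 0.39). Mrpl1, of the stalk that lies beside the tRNA exit, was at 16.3, 15.1 and 14.4 CPM in vehicle and at 19.0, 16.4 and 20.7 CPM with 10HDA, so the groups did not overlap (log2 fold change 0.29, SE 0.14, adjusted p = 0.51). In the small subunit, Mrps6 had a log2 fold change of 0.21 and Mrps10 of 0.16 (adjusted p = 0.64 and 0.65). The groups did not overlap for a few members, all of them higher with 10HDA. All 10HDA libraries exceeded all vehicle libraries for 6 members (8.45%, against 5.96% of all genes tested), which were Mrps14, Mrpl27, Mrpl1, Mrpl24, Mrps10 and Mrps2. All 10HDA libraries lay below all vehicle libraries for 0 members, against 7.44% of all genes tested.

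**Figure D2:**
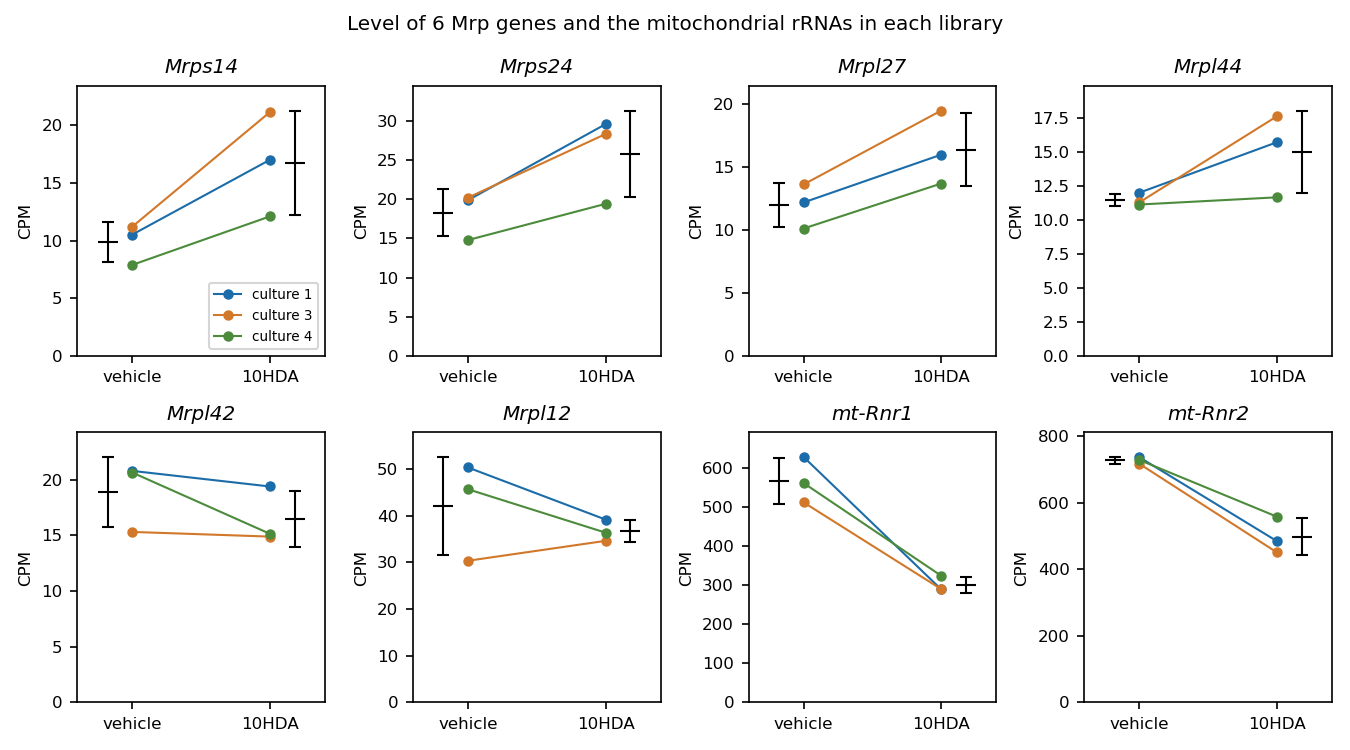
CPM after TMM scaling of 6 Mrp genes and of mt-Rnr1 and mt-Rnr2 in the 6 libraries. Each line joins the vehicle and the 10HDA library of a culture, black marks are the mean and SD over 3 libraries, and the vertical axes start at 0. Mrps14, Mrps24 and Mrpl27 rise in each culture, Mrpl12 is lower in cultures 1 and 4 and higher in culture 3, and the mitochondrial rRNAs fall in each culture.

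At the lower end no gene passed the test in either fit. Mrpl42 was at 20.8, 15.3 and 20.6 CPM in vehicle and 19.4, 14.9 and 15.1 CPM with 10HDA, with a log2 fold change of -0.20 (SE 0.17, n = 3, edgeR adjusted p = 0.69). It was lower with 10HDA in each culture, with log2 ratios of -0.0996, -0.0397 and -0.443. Mrpl12, the stalk protein that recruits translation factors, was at 50.3, 30.3 and 45.6 CPM in vehicle and 39.1, 34.6 and 36.3 CPM with 10HDA. Its log2 fold change was also -0.20 (SE 0.17, adjusted p = 0.69), and culture 3 went against the others. Without culture 3 and with the block, Mrpl12 was called lower (log2 fold change -0.34, adjusted p = 0.050). Mrpl46 and Mrpl48 had log2 fold changes of -0.18 and -0.17. In the small subunit, Mrps15, which binds the rRNA directly, and Mrps27, a pentatricopeptide repeat protein, both had -0.15, Mrps33 had -0.11 and Mrps30 had -0.031. The adjusted p of these 6 genes was between 0.68 and 0.95. Mrps30 and Mrps18a carry small-subunit names, but structures place them in the large subunit. Mrps18a had a log2 fold change of 0.027 (adjusted p = 0.95). Of the 71 tested members, 33 took the other sign in at least 1 of the fits that left out a library or a culture, and Mrps30, Mrps33, Mrps18a and Mrps25 were among them. The fold changes of these 33 were at most 0.16 in size with all libraries.

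Levels per kilobase of exon, averaged over the 6 libraries, ran from 2.86 to 54.3 CPM per kilobase in the large subunit (median 12.8, 47 genes) and from 3.37 to 28.7 in the small subunit (median 10.6, 24 genes). The highest levels per kilobase were those of Mrpl52 (54.3) and Mrpl34 (33.7) in the large subunit and of Mrps6 (28.7) and Mrps33 (25.0) in the small subunit. Mrpl48 (2.86) and Mrpl13 (2.90), and Mrps10 (3.37) and Mrps25 (3.56), were the lowest per kilobase. Their lengths of 6119, 7936, 8079 and 6576 bases are above the median of 1848 bases of tested members. Their mean levels were 17.5, 23.0, 27.2 and 23.4 CPM, beside medians of 23 CPM in the large and 25.9 CPM in the small subunit. Which part of each length was expressed was not tested. Mrps6 shares 19.9% of its exon bases with Gm49711 and 10.4% with Slc5a3, both on the same strand. Of the exon bases of Mrps25, 69.8% lie opposite Nr2c2. How reads in such shared bases were assigned was not tested. Of the genes at these extremes, Mrpl52, Mrpl34, Mrpl13 and Mrps25 had log2 fold changes of 0.19, 0.16, 0.17 and 0.0099, and none was called in either fit. Mrps14, with 4.09 CPM per kilobase, was near the bottom of the small subunit, and Mrps24 and Mrpl27 had 15.0 and 14.4.

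The second question was whether the subunits moved apart. The median log2 fold change was 0.088 for large-subunit genes (30 of 47 higher) and 0.029 for small-subunit genes (15 of 24 higher). The difference of the medians, 0.059, was within -0.00865 to 0.067 when libraries or cultures were left out, and it was not tested. Summed over the 48 genes, the large subunit was at 1353, 1117 and 1157 CPM in vehicle (mean 1209 ± 127, SD, n = 3) and at 1293, 1272 and 1197 CPM with 10HDA (1254 ± 50.5). Culture 1 was lower with 10HDA and cultures 3 and 4 were higher. The small subunit summed to 738.8, 645.3 and 654.4 CPM in vehicle (679.5 ± 51.5) and to 733.2, 714.0 and 679.4 CPM with 10HDA (708.9 ± 27.3). In both subunits the difference between the means was smaller than the SD of the vehicle libraries. The ratio of the large to the small sum was 1.83, 1.73 and 1.77 in vehicle and 1.76, 1.78 and 1.76 with 10HDA, and the groups overlapped. Per kilobase the ratios were 2.26, 2.13 and 2.24 against 2.18, 2.20 and 2.19. Counting Mrps30 and Mrps18a in the large subunit and leaving out Mrps36 gave medians of 0.086 and 0.031.

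**Figure D3:**
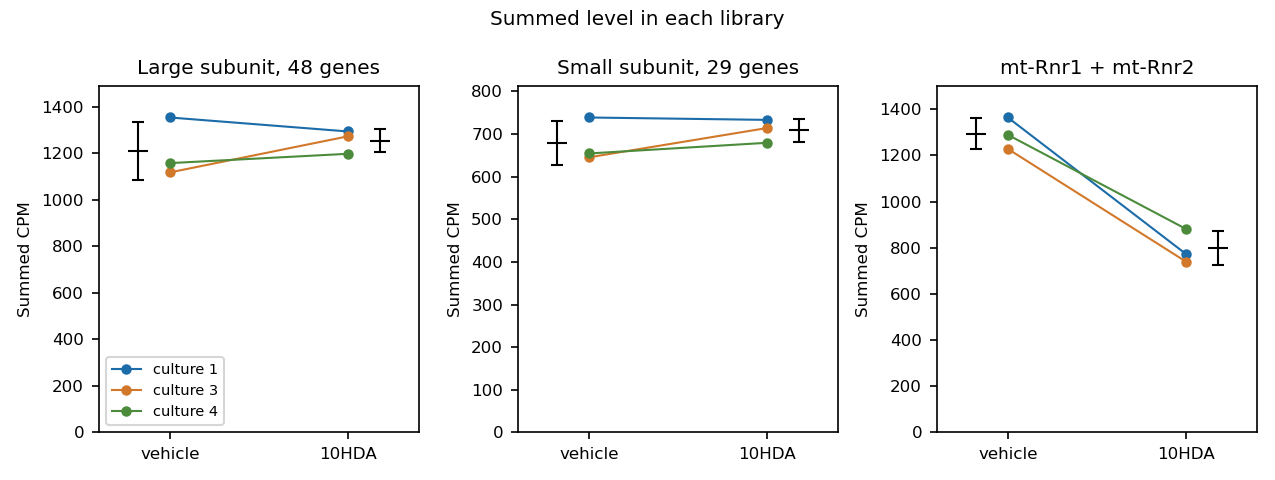
Summed CPM of the 48 large-subunit genes, of the 29 small-subunit genes and of mt-Rnr1 and mt-Rnr2 in each library. Lines join the libraries of a culture, black marks are the mean and SD over 3 libraries, and the axes start at 0. The protein-coding sums overlap between the treatments, while the 10HDA libraries have rRNA sums of 740 to 882 CPM, below the 1228 to 1364 CPM of the vehicle libraries.

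Cultures differed in how the members moved as a group. In culture 3, 58 of the 71 genes were higher with 10HDA, with a median log2 ratio of 0.15. In culture 4, 46 were higher (median 0.035), and in culture 1 only 29 (median -0.051). Over the 10520 genes tested the medians were -0.016, -0.0028 and -0.0022 for cultures 3, 4 and 1. The pattern was clearer in the large subunit (0.19, 0.049 and -0.069) than in the small subunit (0.14, 0.031 and 0.011), a difference that was not tested. The vehicle library of culture 3 had the lowest large-subunit sum and that of culture 1 the highest, whereas the 10HDA sums spanned a narrower range. Members were higher in 3 of 3 cultures in 17 cases (23.9%, against 18.6% of all genes tested), and lower in 3 of 3 cultures in 2 cases, Mrpl42 and Mrps15 (2.82%, against 21.0%). For the other 52 genes the cultures disagreed in sign. Without culture 1 the median of the tested members was 0.13, and without culture 3 it was -0.0028, so the direction of the group rested on culture 3.

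**Figure D4:**
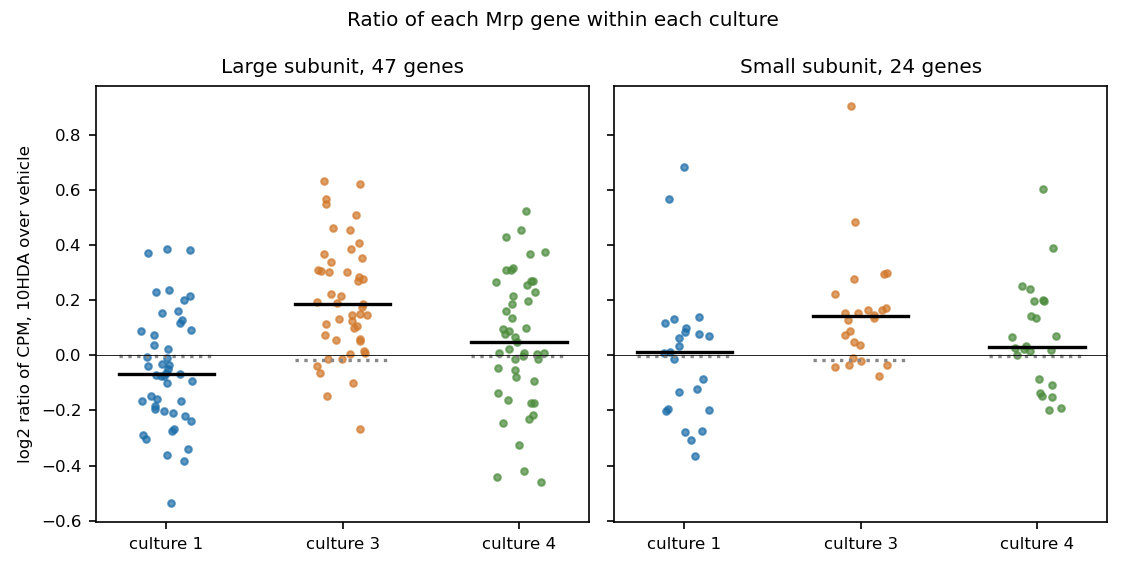
Log2 ratio of CPM, 10HDA over vehicle, of each tested Mrp gene within cultures 1, 3 and 4, for the large subunit (left, 47 genes) and the small subunit (right, 24 genes). Black lines are the medians of the genes shown and dotted lines the medians of all 10520 genes tested. Large-subunit genes lie mostly above 0 in culture 3 (median 0.19) and mostly below 0 in culture 1 (median -0.069).

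The 6 members under the filter were Mrpl53, Mrps28, Mrps18c, Mrps36, Mrps16 and Mrps34. Mrps18c was at 9.89, 7.89 and 6.12 CPM in vehicle and 11.1, 11.7 and 7.40 CPM with 10HDA, and Mrps16 at 9.34, 7.42 and 7.98 against 10.7, 11.3 and 8.97 CPM. Both were higher with 10HDA in each culture and reached 10 CPM only in 10HDA libraries. In a fit without the filter their log2 fold changes were 0.37 and 0.34 (SE 0.19 for both, edgeR adjusted p = 0.54 and 0.58). That fit called Mrps14 and Mrps24 among the members, and 2.37% of all 26859 genes tested. Mrps28, Mrps34 and Mrps36 stayed between 3.51 and 7.60 CPM, with log2 fold changes of 0.031, 0.064 and 0.048 in that fit. Mrps36 is now known as a subunit of the 2-oxoglutarate dehydrogenase complex rather than of the ribosome. Mrps34 shares 37.0% of its exon bases with Nme3 on the same strand and 63.4% with Mapk8ip3 on the other. Mrpl53 had between 0 and 0.15 CPM, below the 0.221 to 0.336 CPM that 3 counts represent, and shares 88.0% of its exon bases with Gm42688 on the same strand, so its level could not be read. In all, 7 members share exon bases with a gene on the same strand and 28 with a gene on the opposite strand.

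In these libraries the RNA partners of these proteins were lower with 10HDA. mt-Rnr1 was at 627, 511 and 561 CPM in vehicle and at 289, 290 and 324 CPM with 10HDA, with no overlap (log2 fold change -0.91, SE 0.11, n = 3, edgeR adjusted p = 0.015). mt-Rnr2 was at 737, 717 and 728 CPM in vehicle and 485, 451 and 558 CPM with 10HDA, also with no overlap (log2 fold change -0.55, SE 0.11, adjusted p = 0.070). Both were called with culture as a block (adjusted p = 1.1e-06 and 0.00054), and with the block they were called whichever culture was left out. Without the block, mt-Rnr1 was not called without the 10HDA library of culture 1 (adjusted p = 0.15) or without culture 1 or 3 as a whole (0.16 and 0.14), and mt-Rnr2 was not called without the vehicle library of culture 3 or 4 (0.17 and 0.24) or the 10HDA library of culture 1 or 3 (0.50 and 0.34), or without culture 1 or 3 as a whole (0.50 and 0.54). mt-Rnr2 also missed the threshold when scaled by library size alone (adjusted p = 0.101). The 2 rRNAs summed to a mean of 1294 CPM in vehicle, beside 42340 CPM for the 13 mRNAs of mitochondrial DNA. How much of the rRNA the library preparation kept was not tested, so the values give levels in the libraries and not in the cells. Copies of mitochondrial DNA in the nucleus can share reads with these genes, and how such reads were counted was not tested. Of the 13 mRNAs of mitochondrial DNA 11 were lower, and the median log2 fold change was -0.22. None of them was called without the block, and mt-Atp8 and mt-Atp6 were called lower with it, at -0.48 (adjusted p = 0.0043) and -0.27 (adjusted p = 0.094). Summed mRNA levels of mitochondrial DNA were 38830, 35450 and 52750 CPM in vehicle and 37520, 30910 and 44220 CPM with 10HDA, lower with 10HDA in each culture but overlapping between the groups. Without culture 1 the median of the mRNAs was -0.28, and with the block 8 of them were then called lower, mt-Atp8 and mt-Atp6 included. In that fit 509 of 10234 genes were called lower.

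Lists of other genes of mitochondrial translation had median log2 fold changes of 0.048 to 0.13, beside 0.041 for the Mrp genes. Of the 5 mitochondrial ribosomal proteins without an Mrp name, 4 were tested, with a median log2 fold change of 0.13, and none was called in either fit (Chchd1, with the smallest p, had 0.17, edgeR adjusted p = 0.65). Of 27 genes for assembly of the ribosome and modification of its rRNA, 17 were tested (median 0.072, 10 higher). Rcc1l, an assembly factor, was the only gene of that list called with the block. It was at 17.0, 13.3 and 13.4 CPM in vehicle and 21.3, 24.3 and 17.4 CPM with 10HDA (log2 fold change 0.53, SE 0.16, edgeR adjusted p = 0.30, and 0.017 with the block). Without culture 3 the call was lost (adjusted p = 0.16 with the block), and without culture 1 it was kept (0.0031). Of 16 translation factors, 12 were tested (median 0.048, 8 higher), and Tsfm, the nucleotide exchange factor of the elongation factor Tu, was called higher with the block. It was at 13.5, 10.1 and 8.16 CPM in vehicle and 17.9, 17.6 and 11.8 CPM with 10HDA (log2 fold change 0.59, SE 0.21, edgeR adjusted p = 0.39, and 0.013 with the block). Without the block, dropping the 10HDA library of culture 4 led to calls of Rcc1l and Tsfm (adjusted p = 0.074 and 0.080), among 355 of 10422 genes. With any other single library dropped, neither was called (edgeR adjusted p of at least 0.16 and 0.17). The filter used CPM by library size, before TMM scaling. On that scale Tsfm reached 10 CPM in 2 libraries only without culture 1 and was not tested, so that its call was not checked there. Of 17 mitochondrial aminoacyl-tRNA synthetases, 13 were tested (median 0.061, 9 higher), and none was called in either fit. Without culture 1 the medians of these 4 lists were 0.18, 0.16, 0.040 and 0.12, and with the block Aurkaip1, a ribosomal protein without an Mrp name, and Ngrn, of the assembly list, were called higher as well (adjusted p = 0.089 and 0.037, named after their values were seen).

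Of 18 genes for maintenance, transcription and RNA processing of mitochondrial DNA, 14 were tested, with a median of 0.00095 and 7 higher. None was called in either fit, and Top1mt had the smallest p (log2 fold change -0.22, edgeR adjusted p = 0.64). The 10 nuclear regulators of mitochondrial genes, such as Esrra, gave 9 tested genes with a median of 0.0058, and none was called (Esrra had 0.19, adjusted p = 0.64). Nuclear-encoded subunits of the respiratory chain had a median of 0.10 over 71 tested genes, with 6 called higher and 1 lower with the block and 0 without it. Proteins of the cytosolic ribosome had a larger median, 0.24 over 65 tested genes, of which 58 were higher. Of these 65 genes, 0 were called without the block and 17 were called higher with it. Over all 10520 genes tested, 8.98% were called with the block and 3.91% were called higher. Both lists, like the Mrp genes, had their highest median in culture 3. For the respiratory chain and the cytosolic ribosome the medians were 0.22 and 0.38 in culture 3, beside 0.0092 and 0.11 in culture 1, and -0.018 and 0.093 in culture 4. Without culture 1 they were 0.19 and 0.28, and those of the maintenance genes and of the regulators were 0.047 and -0.032.

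**Figure D5:**
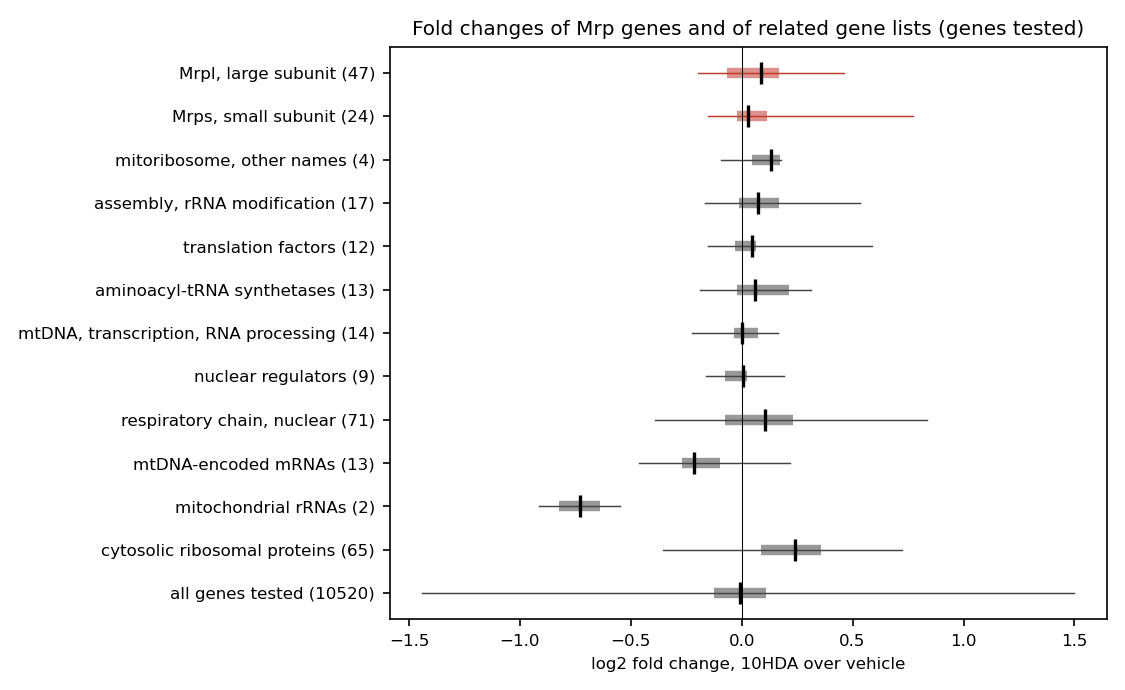
Log2 fold change, 10HDA over vehicle, of the Mrp genes (red) and of related gene lists (grey), with the number of tested genes in brackets. Black ticks are medians, thick bars run from the lower to the upper quartile and thin lines from the lowest to the highest gene. The Mrp lists lie near 0 (0.088 and 0.029), the mitochondrial rRNAs below it (-0.73) and the cytosolic ribosomal proteins above it (0.24).

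Markers of cell types differed between the treatments too. In bulk RNA, fewer cells of a type and less RNA per cell cannot be told apart. Of 11 tested astrocyte markers, 9 were lower with 10HDA (median -0.59) and 5 were called lower, when 0.627% of all genes were called. The astrocyte markers summed to 1352, 1466 and 1652 CPM in vehicle against 1039, 1143 and 1270 CPM with 10HDA. Of 12 neuron markers, 11 were lower (median -0.21). Of these markers 0 were called without and 4 with the block, which called 8.98% of all genes. Their sums were 9648 to 10130 CPM in vehicle and 8056 to 9041 CPM with 10HDA. Medians were -0.15 for 10 excitatory neuron markers, -0.21 for 9 interneuron markers, -0.28 for 7 markers of the oligodendrocyte lineage, -0.091 for 6 of radial glia, 0.66 for 3 of intermediate progenitors and 0.089 for 7 of dividing cells. Pdgfrb was the only tested marker of endothelial cells and pericytes (log2 fold change -1.07). Sums of the intermediate progenitor markers were 52.5 to 70.7 CPM in vehicle and 79.5 to 116 CPM with 10HDA. Without culture 1 the medians were -0.56 for astrocyte markers, -0.19 for neuron markers and 0.75 for the 2 intermediate progenitor markers still tested. None of the astrocyte markers was then called without the block, where 2 genes were called in the whole table. With the block 8 astrocyte markers were called lower, when 509 of 10234 genes were called lower. The part of these shifts in the Mrp values was not tested. Gene length was another property in which the members differed from the rest, with a median of 1848 bases against 4137 bases over all genes tested. After a smooth trend on gene length was removed from each library, the median of the members was 0.066. Without the block 0 members were called (0.875% of all genes). With the block Mrps14, Mrps24 and Mrpl27 were still called, together with Mrpl30 (edgeR adjusted p = 0.096, named after its value was seen), all higher. That fit called 12.5% of all genes, and 567 of 10520 genes were called higher.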

How the data were processed

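RNA was sequenced from 6 libraries of primary mouse cortical cultures, 3 treated with vehicle and 3 with 10HDA. The authors aligned untrimmed 50 bp reads to mm10 with Subjunc (Subread 1.4.4) and summarized them by gene in featureCounts, using Gencode models. The strand setting of that counting is not given in the sources used here, although the library kit keeps the strand. The deposited values are raw counts, not normalized or filtered, beside a column of gene length in bases. No sample column was left without a sample.

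Symbols and coordinates came from GENCODE M21 (GRCm38), which matched 98.0% of 43346 identifiers. The filter kept the 10520 genes that reached 10 CPM in 3 or more libraries. Counts were scaled by TMM and tested with edgeR 4.0.16 (glmQLFit, glmQLFTest; R 4.3.3). P-values were adjusted by Benjamini-Hochberg over all genes tested, at a threshold of 0.1. The SE of a log2 fold change is its size over the square root of F. CPM are after TMM scaling on the tested genes, except that the filter and the level of Eme1 used CPM by library size alone. The ratio within a culture used log2 CPM with a prior count of 2. The biological coefficient of variation common to all genes was 0.12, which the culture block lowered to 0.085. The smallest p of an exact permutation test on 3 against 3 libraries is 0.1, so none was run. The labels tie the libraries of a culture together, and their deviations from the group means correlated at 0.37, 0.24 and 0.62 within cultures 1, 3 and 4, against -0.45 to 0.18 between cultures. Where nothing else is said, the fit had no culture term. The analysis script was tested on simulated data.

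Members, related lists and markers were chosen with earlier results of these data known. Cytosolic ribosomal proteins and respiratory chain subunits were chosen by symbol. Members are named when called in either fit (up to 10 by p), when among the 4 highest or lowest fold changes or the 2 highest or lowest levels per kilobase of a subunit, or when their subunit name is disputed (Mrps18a, Mrps30 and Mrps36). Of each list the genes called, up to 3, or the gene with the smallest p are named, and other genes only where they fill a count of 6 or fewer or overlap a member. A gene that this rule picks is not reported here. Alternatives were other scalings, filters and thresholds, DESeq2 1.42.0, limma-voom (limma 3.58.1), a length trend and leaving out libraries or cultures. The fits that combine the block with a culture left out, TMM factors from all genes with a count, and the related lists without culture 1, were added after the data were seen. Promoter windows were matched by symbol. The floor of 3 counts covers counting error only.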

Additional observations from a re-analysis of the deposited data

How the results depend on the processing

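The numbers of genes called depended strongly on the fit. Without a block, 66 genes were called among all tested, against 945 with culture as a block, 1265 with the block and library-size scaling, 1320 with the block and the length trend removed, 636 without the expression filter, 170 with DESeq2 and 43 at a threshold of 0.05. Of the Mrp genes, 0 were called in the fit without a block and 3, 7, 4, 2, 1 and 0 under those settings in turn. The block changed no other call among the 21 named members tested. The 7 were Mrps14, Mrps24, Mrpl27, Mrpl30, Mrpl44, Mrpl57 and Mrpl1. Library-size scaling moved the median of all genes from -0.0095 to 0.067, that of the members from 0.041 to 0.118 (57 instead of 45 of 71 higher), that of the large subunit from 0.088 to 0.164, that of the small subunit from 0.029 to 0.10 (0.11 with the block) and the log2 ratio of the small-subunit sums from 0.061 to 0.14. Mrps30 then turned to 0.045, and to 0.048 with the block. Medians of the members, of the large and of the small subunit were above 0 under every scaling tried.

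When libraries or cultures were left out, with or without the block, the calls over the whole table ranged from 0 to 1089 and those of Mrp genes from 0 to 4. With the block the whole table had 869, 1089 and 358 calls without cultures 1, 3 and 4. With no block it had 0 calls without the 10HDA library of culture 1 or without culture 3, 2 without culture 1 or the vehicle library of culture 3, 10 when the vehicle library of culture 4 was missing, 27 without the 10HDA library of culture 3, 35 without culture 4, 101 when the vehicle library of culture 1 was missing and 355 when the 10HDA library of culture 4 was. The median of the members ranged from -0.0028 (without culture 3) to 0.155 (without the vehicle library of culture 1), that of the large subunit from -0.0028 to 0.19, that of the small subunit from 0.0026 to 0.125, and their difference from -0.00865 to 0.067. The number of members that were higher ranged from 34 of 70 (without culture 3) to 57 of 69 (without the vehicle library of culture 1), and 33 of the 71 members took the other sign in at least 1 of these fits without the block. The same was so for 27 members with the block and a culture left out. Among the named members these were Mrps30 (-0.087 to 0.0733), Mrps33 (-0.20 to 0.042), Mrps25 (-0.075 to 0.12) and Mrps18a (-0.026 to 0.155). With the block these reached 0.077 and 0.0144 without culture 1 for Mrps30 and Mrps33, and -0.073 and -0.0175 without culture 4 for Mrps25 and Mrps18a. With the block, calls beyond the named 3 were Mrpl2 without culture 1, Mrpl54 and Mrpl12 (both lower) without culture 3, and Mrpl57 without culture 4. The causes were not tested. At this depth 3 counts stood for 0.221 to 0.336 CPM, above the level of Mrpl53 in each library.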
